A study of Homo sapiens with 18 samples.

Results

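The 8 genes described here, *PIEZO1*, *PIEZO2*, *TRPA1*, *TRPC1*, *TRPM4*, *TRPM7*, *TRPV2* and *TRPV4*, encode cation channels linked to the sensing of mechanical force. They were chosen by name as channels linked to mechanosensing, after results for these samples had been seen, and no limit on a measured value was applied. All 8 had a row at 3, 6 and 24 h in a table that lists 21944 genes in all, 18672 of them at all 3 times. The table came from bulk RNA sequencing of human pancreatic progenitors, made from embryonic stem cells, detached with accutase at day 19 of differentiation and reseeded in wells coated with laminin-411 (LN411) or fibronectin (FN). The 6 groups were LN411 and FN at 3, 6 and 24 h, with 3 samples each and 18 samples in all. The sample labels give HUES4 as the cell line, while the growth protocol names NGN3-GFP cells derived from SA121, and the study also describes the sequenced cells as NGN3-GFP derived. It describes the samples of a group as biological replicates.

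The value used for each gene is its mean normalized count, a mean that was computed by the authors after DESeq2 size factors had been applied. It is a single number per gene that pools LN411 with FN and the early with the late samples, and it was the same at all 3 times to within a relative gap of 4.89e-07. The question of the study design, how LN411 changes expression relative to FN, cannot be answered from this pooled mean. The authors' own comparisons of LN411 with FN were not used, so that question was not analysed here for these channels. No spread between samples can be given for any level below, and the depth of single libraries is unknown. In bulk RNA, few cells with much of a transcript and many cells with little of it cannot be told apart.

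PIEZO proteins form trimeric channels that open when the membrane is stretched and let calcium and other cations into the cell. TRP channels are tetramers that respond to chemical ligands, heat, lipids, calcium or swelling, and for several of them whether force acts on the channel directly remains debated. Calcium that enters through such channels can act on calmodulin, calcineurin and calpains, and PIEZO1 is known for pressure sensing in pancreatic acinar cells and in endothelium.

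The start regions of 3 members are shown first, since *PIEZO1* and *PIEZO2* are close relatives that stood far apart in level, and *TRPC1* had the fewest CpG dinucleotides among the members with a sequence. Each is the 250 bases before the RefSeq start on GRCh38.p14, read 5′ to 3′ on the strand of the gene, with CpG dinucleotides in capitals. The windows are chr16:88785221-88785470 on the minus strand for *PIEZO1*, chr18:11149570-11149819 on the minus strand for *PIEZO2* and chr3:142723784-142724033 on the plus strand for *TRPC1*.
PIEZO1: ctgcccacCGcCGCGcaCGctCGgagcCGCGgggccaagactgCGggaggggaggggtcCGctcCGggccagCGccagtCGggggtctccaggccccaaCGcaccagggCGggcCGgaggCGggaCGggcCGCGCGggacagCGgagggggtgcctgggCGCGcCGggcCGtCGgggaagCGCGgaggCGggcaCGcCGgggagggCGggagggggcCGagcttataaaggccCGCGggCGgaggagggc
PIEZO2: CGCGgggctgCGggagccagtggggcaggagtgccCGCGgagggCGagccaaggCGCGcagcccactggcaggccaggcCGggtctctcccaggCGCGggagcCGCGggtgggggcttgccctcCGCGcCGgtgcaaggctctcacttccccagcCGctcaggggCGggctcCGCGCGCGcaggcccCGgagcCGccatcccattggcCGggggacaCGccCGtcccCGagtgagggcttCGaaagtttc
TRPC1: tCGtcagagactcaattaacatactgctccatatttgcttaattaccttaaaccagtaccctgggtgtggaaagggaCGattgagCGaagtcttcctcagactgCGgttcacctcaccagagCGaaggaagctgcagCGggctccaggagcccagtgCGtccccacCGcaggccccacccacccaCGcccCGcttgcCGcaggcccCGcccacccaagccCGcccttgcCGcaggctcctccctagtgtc

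Over the 8 members, the mean normalized count in the authors' table ran from 23.9 to 3974, and their sum of 9258 was 0.0174% of the sum over all genes. *PIEZO1* held 42.9% of the members' sum and *TRPM7* a further 30.8%. Because a long transcript gives more reads than a short one at the same abundance, levels of different genes were compared per length. For this, the mean normalized count was divided by the length of the longest annotated transcript and scaled to a sum of 1000000 over the 21861 genes with a length, which gives parts per 1000000 (ppm). The median gene had a level of 5.74 ppm on this scale. Here and below, the median gene, all genes and shares of genes refer to these listed genes. Every listed gene had reads, so genes without any were left out of the ranking. A share below is therefore not a share of all annotated genes. The members fell on both sides of the median gene, with *PIEZO1*, *TRPM7*, *TRPC1* and *TRPA1* above and *TRPV4*, *TRPM4*, *PIEZO2* and *TRPV2* below.

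**Figure D1:**
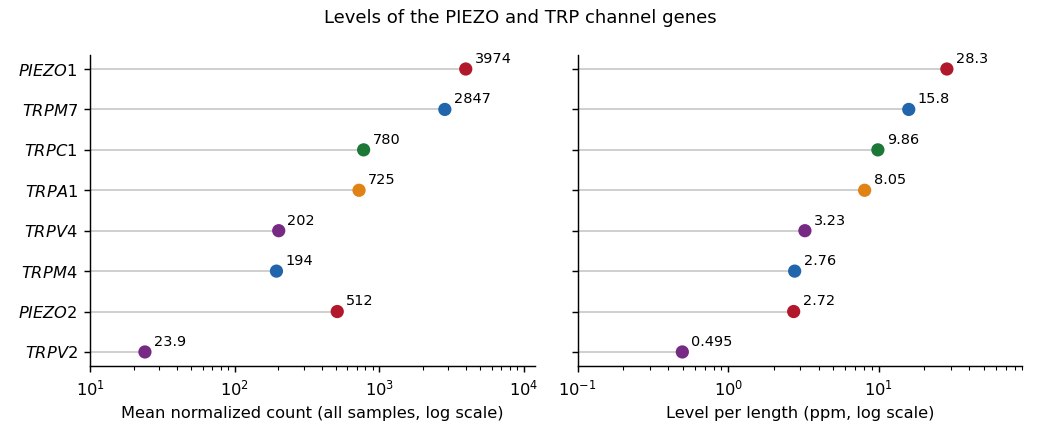
Each point is 1 gene, with the authors' mean normalized count over all samples on the left and the level per length, in ppm, on the right, both on log axes and coloured by subfamily. *PIEZO1* leads both panels at 3974 and 28.3, while *PIEZO2* takes place 5 of 8 by count at 512 and place 7 per length at 2.72. No error bars are drawn because values of single samples were not analysed.

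*PIEZO1* (ENSG00000103335) lies on chromosome 16 of GRCh38 from 88715338 to 88785220 on the minus strand, with 51 exons in its canonical transcript. Its mean normalized count was 3974 and its level 28.3 ppm, above 73.7% of the ranked genes. *PIEZO2* (ENSG00000154864), best known as the touch and proprioception channel of sensory neurons and Merkel cells, spans 483087 bases of chromosome 18 from 10666483 to 11149569 on the minus strand. It had a mean normalized count of 512 and a level of 2.72 ppm, above 40.8% of the ranked genes. This share was 19.8% with coding length. Per length, the *PIEZO1* transcript was 10.4 times as abundant as that of *PIEZO2*, and by count 7.76 times. The ratio per length was 8.82 with coding length and 14.4 with merged exons as length.

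*TRPM7* (ENSG00000092439; chromosome 15, 50552473 to 50686797, minus strand) encodes a magnesium and zinc permeable channel fused to a kinase domain. With a mean normalized count of 2847 and a level of 15.8 ppm, it was the second member by both measures, and the level of *PIEZO1* was 1.79 times that of *TRPM7* per length but 1.03 times with coding length. *TRPM4* (ENSG00000130529; chromosome 19, 49157741 to 49211836, plus strand), a channel for monovalent cations that calcium opens and that does not itself pass calcium, had a mean normalized count of 194 and a level of 2.76 ppm. The level of *TRPM7* was 5.73 times that of *TRPM4*, and 9.54 times with coding length. *TRPM4* and *PIEZO2* differed by a factor of 1.02 per length, and their order turned when coding length was used.

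*TRPC1* (ENSG00000144935) lies on chromosome 3 from 142724034 to 142807888 on the plus strand and encodes a subunit that assembles with TRPC4 or TRPC5. Its mean normalized count was 780 and its level 9.86 ppm, above 57.1% of the ranked genes. *TRPA1* (ENSG00000104321; chromosome 8, 72019917 to 72075584, minus strand) encodes the receptor for mustard oil and other reactive irritants. It followed with 725 and 8.05 ppm, above 54.3% of the ranked genes. Per length, *TRPC1* was 1.22 times as high as *TRPA1*, a gap that cannot be set against a spread between samples. Both stood between *TRPM7* and the lower 4 members, and *TRPA1* was 2.49 times as high as *TRPV4*, the next gene below.

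Both TRPV members lay below the median gene. *TRPV4* (ENSG00000111199), which responds to hypotonic swelling and warmth, lies on chromosome 12 from 109783087 to 109833406 on the minus strand and had a mean normalized count of 202 and a level of 3.23 ppm. *TRPV2* (ENSG00000187688; chromosome 17, 16415571 to 16437003, plus strand) encodes a channel linked to noxious heat and membrane stretch. It had the lowest mean normalized count of the 8, at 23.9. Its level was 0.495 ppm, above 15.9% of the ranked genes. The *TRPV4* level was 6.52 times that of *TRPV2* and the *PIEZO1* level 57.2 times. The widest gap between neighbours in the order of the 8 members was the one above *TRPV2*, where the level of *PIEZO2* was 5.49 times that of *TRPV2*, or 3.45 times with merged exons as length.

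**Figure D2:**
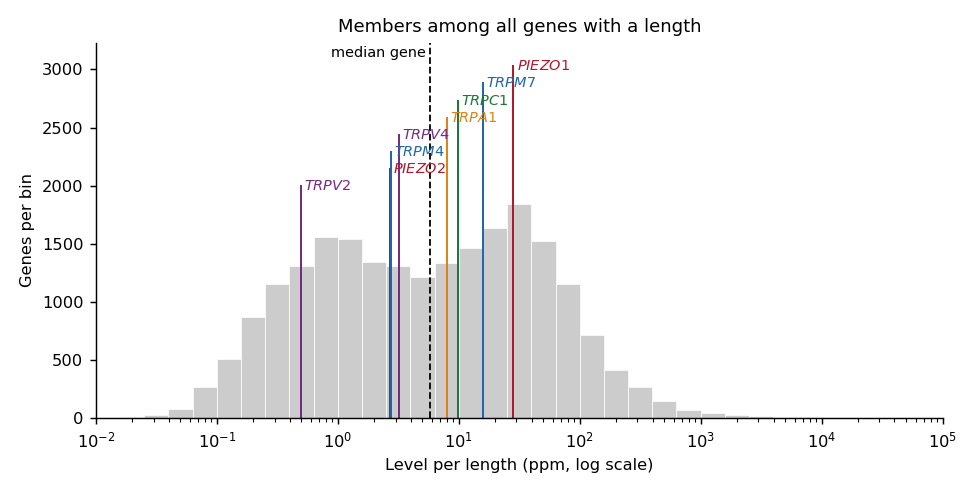
Grey bars count genes by level per length, in ppm, on a log axis, the dashed line marks the median gene at 5.74, and coloured lines mark the 8 members. The genes form 2 humps, and the members run from 0.495 for *TRPV2* in the lower hump to 28.3 for *PIEZO1* in the upper one.

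Within the family, 27 human TRP genes were looked up, 6 of them members, and 21 had a row. By level per length, *TRPM7* took place 4 of these 21, *TRPC1* place 6, *TRPA1* place 7, *TRPV4* place 9, *TRPM4* place 10 and *TRPV2* place 14. The 3 highest TRP genes were no members. They were *PKD2*, the ciliary channel mutated in polycystic kidney disease, at 41.9 ppm, and the lysosomal channels *MCOLN3* at 37.7 and *MCOLN1* at 18.4. The lowest were *TRPM6* at 0.0654, *TRPC5* at 0.0443 and *TRPM3* at 0.0404 ppm. Among the possible partners of *TRPC1*, *TRPC4* had 13.5 ppm. *TRPC6*, *TRPM1*, *TRPM2*, *TRPM8* and *TRPV5* had no row and were not analysed here. The 8 members had a median level of 5.64 ppm and the 15 other TRP genes with a row one of 0.540, against 5.74 over all genes, and this difference was not tested, since the members were picked with results known.

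A list of other channels linked to gating by force or volume, with their relatives and partners, held 27 genes, and 25 had a row. Not every gene of the list encodes a channel known to be opened by stretch or swelling. The 25 genes had a median of 9.29 ppm, and 14 of them stood above the median gene. This count and those for the lists below hold for the longest transcript and all listed genes. They were not computed for other lengths or gene sets, and among protein coding genes the median gene had 16.3 ppm. *TMEM63B* at 99.7 and *TMEM63A* at 94.1 ppm, both of the OSCA and TMEM63 family of channels opened by membrane tension, and *LRRC8A* at 72.0, the required subunit of the volume regulated anion channel, all lay above *PIEZO1*. *MDFI* and *MDFIC*, whose proteins bind PIEZO channels as auxiliary subunits, had levels of 29.7 and 2.28 ppm. The lowest of the list were *TMC1* at 0.186, *KCNK2* at 0.155 and *KCNK10* at 0.141. On this scale *PIEZO1* was below the TMEM63 pair. *MDFI* was close to it, and so were *TMC6* at 29.9 and *TMEM150C* at 29.7 ppm.

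**Figure D3:**
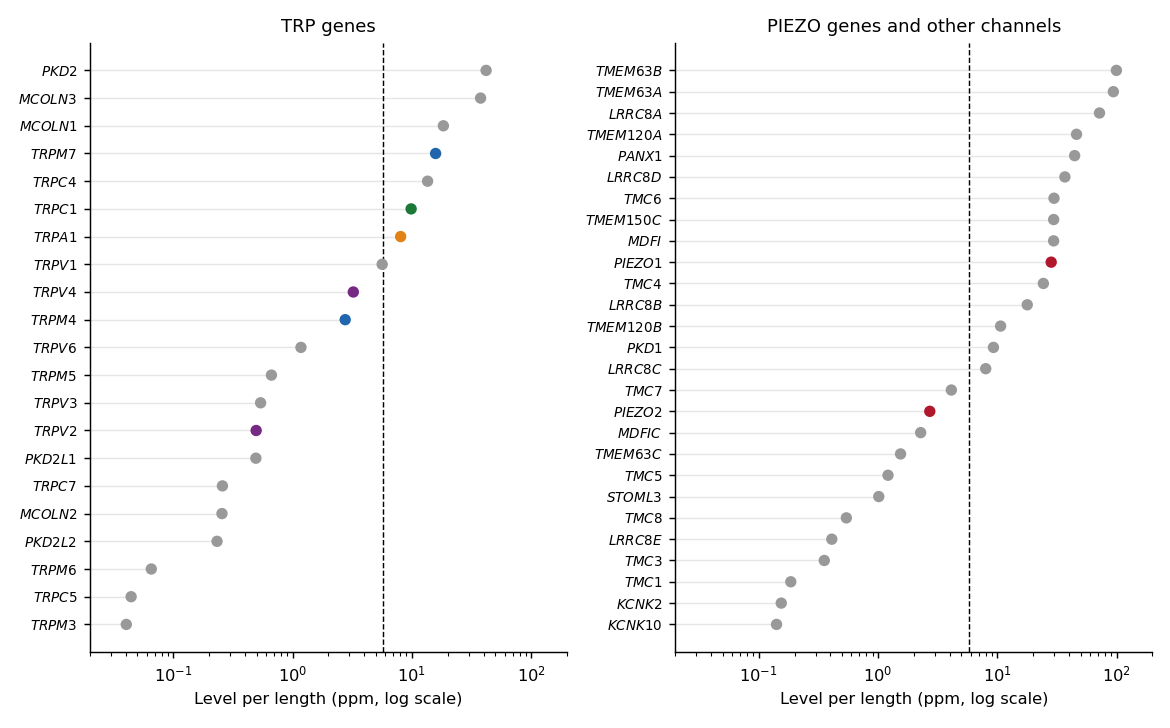
Levels per length, in ppm, on log axes are shown for the 21 TRP genes with a row on the left and for both PIEZO genes with the 25 other channels and partners on the right, members in colour and the median gene dashed. *TRPM7* at 15.8 is the highest TRP member and lies below *PKD2* at 41.9, and *PIEZO1* at 28.3 lies below *TMEM63B* at 99.7.

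The genes that handle calcium after entry were mostly more abundant than the channels. All 27 genes of a list of store-operated entry, calcium pumps and calcium response had a row, with a median of 49.6 ppm, and 22 stood above the median gene. *CALM2* and *CALM3*, which encode calmodulin, reached 477 and 411 ppm. At the lower end were *ITPR2*, an inositol trisphosphate receptor, at 2.45, and the calcineurin targets *NFATC1* at 1.83 and *NFATC4* at 0.557 ppm.

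The labelled cell type was checked with markers. All 13 pancreatic progenitor markers had a row and 12 stood above the median gene, with *EPCAM* at 2594, *GP2* at 2349, *CDH1* at 616, *PDX1* at 286, *NKX6-1* at 50.5 ppm, and *PTF1A* at 0.467 as the exception. For other cells, 5 of 6 mesenchymal markers had a row, from 0.506 to 39.9 ppm with *COL1A1* highest, 4 of 4 endothelial markers from 0.0715 to 0.635, 3 of 4 neural markers from 0.270 to 5.43, 3 of 4 acinar markers from 2.97 to 97.2 with *PRSS1* highest, and 1 of 3 stem cell markers, *DPPA4*, at 7.09. The 8 endocrine markers ran from 0.751 for *INS* to 125 for *CHGA*, and none of the 3 blood markers had a row. The part of these cells in the levels of the channel genes was not tested.

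Of the 8 members, 5 had a start region in the RefSeq table, without *TRPA1*, *TRPV2* and *TRPV4*. *TRPM7* had 38 CpG dinucleotides in its 250 bases, *PIEZO1* 36, *PIEZO2* 29, *TRPM4* 16 and *TRPC1* 14, against a median of 20 over the 13190 genes with a row and a sequence. GC content was 81.2% for *PIEZO1*, 76.8% for *PIEZO2*, 70.8% for *TRPM7*, 69.2% for *TRPM4* and 61.2% for *TRPC1*. Across these 13190 genes, the median level rose from 1.20 ppm at 0 to 4 CpG to 13.7 at 10 to 14 and 21.0 at 20 or more. *PIEZO2*, with 2.72 ppm, lay below the lower quartile of 5.30 for genes with 20 or more CpG, and *TRPM4* lay below that of 4.17 for genes with 15 to 19. *PIEZO1* lay above the median of its CpG class, and *TRPM7* and *TRPC1* lay below the median and within the quartiles of theirs.

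Short motifs were searched on both strands of the same windows. The GC box letters GGGCGG, which overlap CpG content since they hold a CpG, were in all 5 windows and in 42.3% of 27303 RefSeq windows. These windows include genes without a row and had a median of 11 CpG, against 20 for the genes with a row. Motif shares among genes with a row alone were not computed. The TATA box letters TATAAA were in 1 of the 5, *PIEZO1*, from base 27 to base 22 before the start, and in 11.1% of all windows. The letters CCAAT were in the *PIEZO2* window alone of the 5, on the reverse strand from base 48 to base 44 before the start, and in 33.0% of all windows. GGAATG, the core letters of the TEAD site through which YAP acts, were in 0 of the 5 and in 11.9% of all windows. These matches describe letters and not bound sites.

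**Figure D4:**
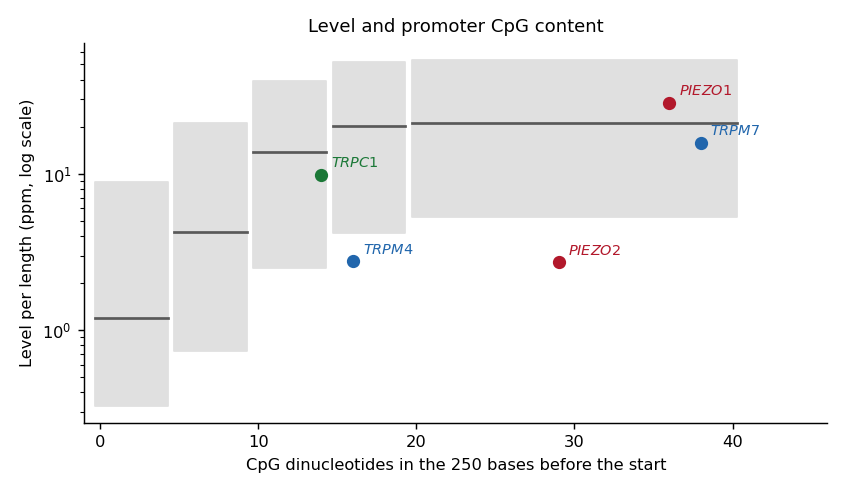
CpG dinucleotides in the 250 bases before the start are plotted against level per length, in ppm, on a log axis. Grey boxes span the quartiles and dark lines the medians of the 13190 genes with a row and a sequence, in 5 CpG classes. The last class holds every gene of these with 20 or more. *PIEZO2* at 2.72 lies below the box of its class while *PIEZO1* at 28.3 lies inside it.

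Genes that overlap the members could affect the counts of the members. The paper names the GeneCounts option of STAR for the counting, but the strand setting taken from it is not given in the sources used here. Overlaps were taken from GENCODE v44, while the authors counted with an older release. *TRPA1* lies wholly within the span of the antisense gene *MSC-AS1*, which had no row. Exons of *MSC-AS1* share 981 bases with those of *TRPA1*, 15.5% of the merged length of the latter. *PIEZO1* shares 1427 exonic bases, 12.6%, with the opposite-strand ENSG00000260121, whose own mean normalized count was 11.2, and 695 with ENSG00000224888, at 62.0. *TRPV2* shares 263 and 145 exonic bases with 2 long non-coding genes, 1 of them on its own strand. For *TRPC1* and *TRPM4*, no exon was shared with another annotated gene. The largest exonic overlap with any single gene was 4.90% of the merged length for *TRPM7*, 1.77% for *PIEZO2* and 1.47% for *TRPV4*. For *TRPM7* this gene was on the opposite strand. On its own strand, *TRPM7* shares 390 exonic bases, 3.15%, with the protein coding ENSG00000288645, which had no row. How far these overlaps changed the counts was not tested.

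The order of the members was compared over 5 alternatives of length and gene set. *PIEZO1*, *TRPM7*, *TRPC1*, *TRPA1*, *TRPV4* and *TRPV2* kept their places in all 5. Percentiles moved more than places. *PIEZO1* ranged from the 44.3rd to the 73.9th percentile, *TRPM7* from 43.9 to 66.2, *TRPC1* from 35.3 to 60.7, *TRPA1* from 31.5 to 55.4, *TRPV4* from 22.0 to 45.0, *TRPM4* from 18.8 to 41.1, *PIEZO2* from 19.8 to 40.8 and *TRPV2* from 6.80 to 15.9, with the lowest value of each under coding length, for which only the 15359 genes with a coding sequence are ranked. The length used mattered as well as the gene set. Among the 15355 protein coding genes ranked by longest transcript, every member stood higher than under coding length, with *PIEZO1* at 63.3 and *TRPM7* at 50.1. The statement that 4 of the 8 members lie above the median gene holds for the full gene set, with the longest transcript or merged exons. Among protein coding genes alone, 2 lay above it with the longest transcript, and 0 did with coding length.

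**Figure D5:**
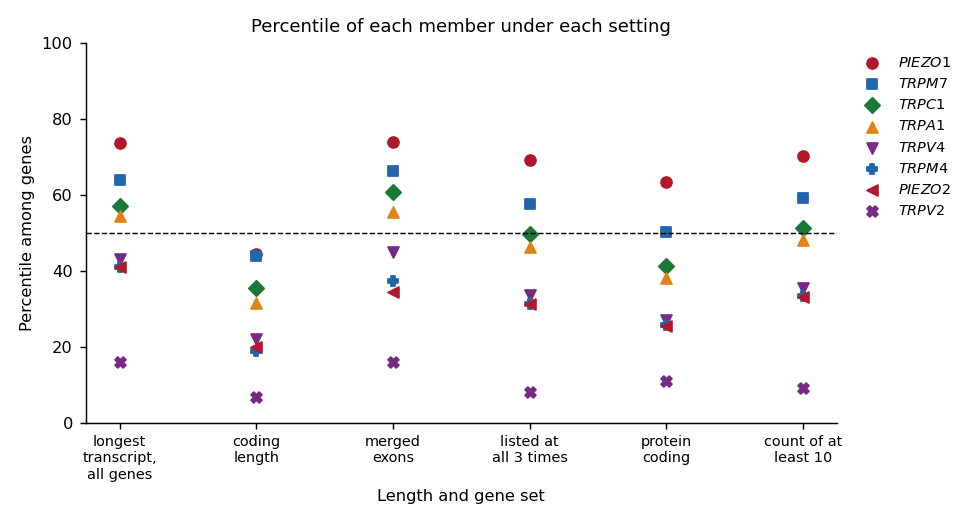
The percentile of each member among the ranked genes is shown for the longest transcript with all genes and for the 5 alternatives, with the 50th percentile dashed. *PIEZO1* stays highest and *TRPV2* lowest in every column, and under coding length all 8 members lie below the dashed line, *PIEZO1* at 44.3.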

How the data were processed

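According to the submitters' notes and the methods, the authors aligned reads of poly(A) RNA with STAR 2.7.2d to GRCh38 with an older GENCODE release, counted them per gene and used DESeq2 1.34.0. The value analysed is the deposited mean normalized count, a signal: per gene, the authors' mean of counts divided by DESeq2 size factors. That it covers every sample was taken from its being equal at each time. The other deposited columns hold the authors' own comparisons of LN411 with FN at each time (fold change, its standard error, test statistic and p-values) and were not used. Values per sample were not analysed here, so the planned count test, with its normalizations, filters, replicate block and left-out replicates, was not run, and no interval or floor is given.

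Genes were matched by Ensembl identifier to GENCODE v44 on GRCh38, which gave a length for 99.6% of genes and 99.9% of the summed mean. Levels are the mean normalized count per 1000 bases of the longest transcript, scaled to 1000000. A percentile is the share of the ranked listed genes with a lower level. The scaling was tested on simulated data. Start regions are from RefSeq. Python 3.11.15, pandas 2.3.3, numpy 2.4.6 and matplotlib 3.10.9 were used.

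The members and gene lists were chosen with earlier results of these data known. The rule for named genes was the 8 members and the 3 highest and 3 lowest genes of each list. *TRPC4*, *MDFI*, *MDFIC*, *TMC6*, *TMEM150C* and single markers were chosen after their values were seen. Some single genes of the lists are not reported here.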

Additional observations from a re-analysis of the deposited data

How the results depend on the processing

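The number of members above the median gene was 4 with the longest transcript and all genes. It was 0 with the longest coding sequence as length, 2 among genes listed at all 3 times and 2 among protein coding genes. Each of these ranks the members in a smaller set with a higher median, and coding length also lowered the level of every member. It was 4 with merged exons as length and 3 when genes under a mean normalized count of 10 were left out of the ranking. The counts for the other gene lists were not repeated under these alternatives. The order of the members was the same in 4 of the 5 alternatives, and with coding length 6 of 8 kept their place, since *PIEZO2* and *TRPM4* exchanged theirs. All 8 members were listed at all 3 times, as were 18672 of the 21944 genes. No paired analysis was possible because the table used here has no column for a single sample, and for the same reason the planned normalizations, filters and fits without single replicates were not run. Precision between samples is unknown, and differences between neighbouring levels have no error. Low levels rest on few reads, as for *TRPV2* with a mean normalized count of 23.9.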
